A study of Mus musculus with 10 samples.

Results

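The comparison described here set GFP-positive CD4 T cells that read a disrupted Foxp3 locus against CD4 T cells that carried neither GFP nor CD25. Of 10 arrays of mouse T cell RNA in the study, it used 2, 1 for each population, both from untreated mice. The study asked how Foxp3, the phosphodiesterase PDE3B and IL-2 shape expression in peripheral T cells. Foxp3 is X-linked, and the mice were females of 6 to 8 weeks, whose lymph node and spleen cells were pooled and sorted with magnetic beads and then by flow cytometry. The first population, called GFPko, was GFP+ CD4+ cells of Foxp3(gfpko/wt) heterozygous mice at backcross 5 from 129/Sv to C57BL/6. In these mice 1 allele makes GFP in place of Foxp3, and each cell uses only 1 of its X chromosomes, so the GFP-positive cells read the locus without making Foxp3 while other cells of the same animal make it normally. The second population, called CD25neg, was GFP- CD25- CD4+ cells of Foxp3(gfp/gfp) mice at backcross 8 to 10, in which GFP is fused to Foxp3 and marks every cell that holds the protein. The labels do not say how many mice were pooled, and for the untreated mice they name no vehicle.

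Beside these arrays stand 3 others, used here for their levels only. CD25pos cells (GFP- CD25+) and GFPfoxp3 cells (GFP+, with the fusion protein) came from untreated Foxp3(gfp/gfp) mice. The remaining array held GFPko cells of mice that had received 4 injections of IL-2, each of 50 ng per g, within 24 h, and the cells were isolated 30 min later.

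Foxp3 is the transcription factor of regulatory T cells, which restrain other immune cells through receptors such as CTLA-4, through cytokines such as IL-10 and by taking up IL-2 with their high-affinity receptor. Conventional CD4 T cells that meet antigen instead take on helper fates, marked by T-bet and interferon gamma in Th1 cells and by IL-17 and CCR6 in Th17 cells. The comparison asks which genes distinguish cells that read the Foxp3 locus without making the protein from conventional cells in which the locus is silent.

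The 2 populations differ in the Foxp3 locus, in the CD25 gate, in the mouse line and in the number of backcrosses, and with 1 array each these cannot be told apart. No group had a replicate, so no difference below was tested, and the number of arrays limits every value. Expression is given as the deposited log2 value of a probe set, where 1 unit is a 2-fold change. The median over all probe sets was 3.11 on the GFPko array and 3.06 on the CD25neg array. A gene below its array's median was taken as not above background there, and the fold is then given as "at least", set against that median. A lower level just above the median, such as that of Gzma in GFPko cells (3.15) or Il17a in CD25neg cells (3.20), is close to background too. Where the probe sets of a gene disagree enough to end a 2-fold difference or to change it by over 1.5-fold, the difference of their mean, or of another probe set, is given beside it. Such a mean can take in a probe set below the median on both compared arrays, which pulls it toward no difference. For Irf4, Pim1, Tnfrsf1b and Eomes the other probe set was of this kind. The 3′ to 5′ difference of the Actb control probe sets, which grows as RNA becomes shorter, was 3.69 log2 units in GFPko and 3.29 in CD25neg cells, and that of Gapdh was 5.94 in GFPko and 6.49 in CD25neg cells. As RNA of whole populations was measured, fewer cells of a type and less RNA per cell cannot be told apart.

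Over 11939 genes, 469 were at least 2-fold higher in GFPko than in CD25neg cells, 3.93% of those read, and 334 were at least 2-fold lower, 2.8%. Counts within the gene lists below are to be read beside these shares. The median difference, GFPko minus CD25neg, was 0.0032 log2 units, and the 5th and 95th percentiles were -0.77 and 0.83. Large differences were more often higher than lower: 148 were at least 4-fold higher against 58 lower, 60 were at least 8-fold higher against 14 lower, and 25 were at least 16-fold higher against 7 lower. At the 2-fold threshold the last gene counted as higher differed by 1.0007 and the first not counted by 0.9987. On the lower side these values were -1.0001 and -0.9975. The CD25neg array lay below its median for 74 of the higher genes, and the GFPko array for 49 of the lower ones.

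**Figure D1:**
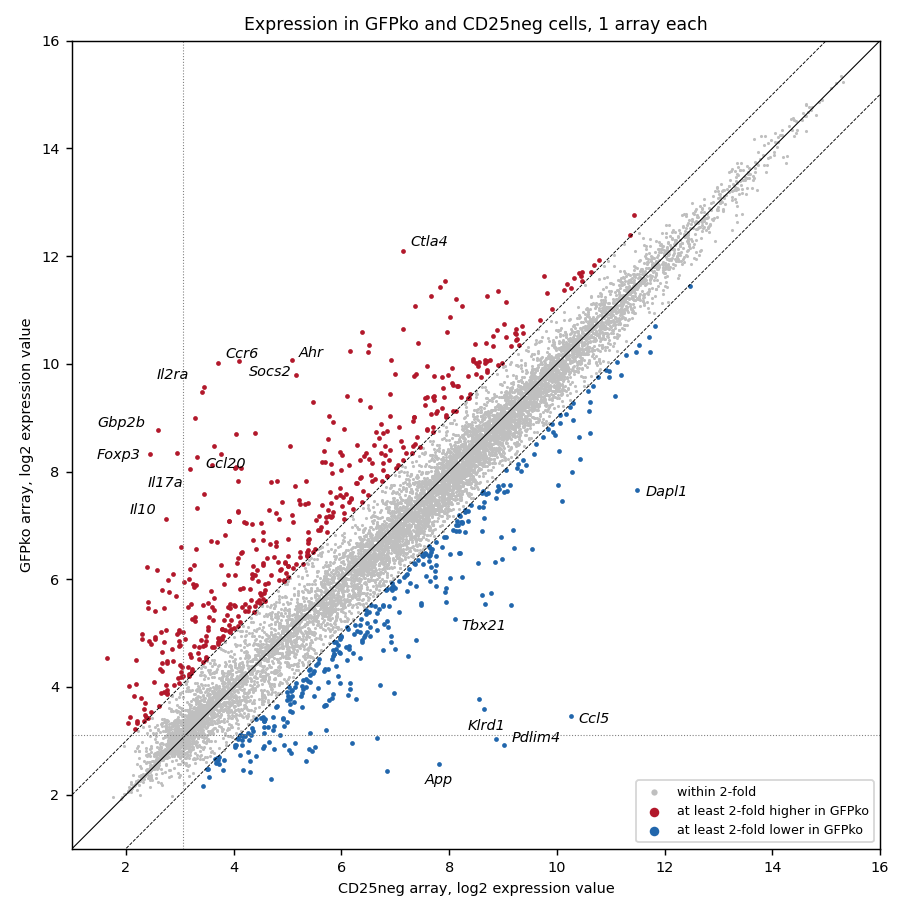
Each point is 1 gene, with its log2 value in CD25neg cells across and in GFPko cells up, and dotted lines mark the 2 array medians. The 469 genes at least 2-fold higher in GFPko cells lie above the upper dashed line, led by Ccr6, and the 334 lower ones below the lower dashed line, led by Ccl5.

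Both populations carried the marks of CD4 T cells at like levels. None of 9 measured CD4 T cell markers differed 2-fold, with differences of -0.64 to 0.23 and median levels of 11.73 in GFPko and 11.77 in CD25neg cells. Cd4 itself, used in both sorts, was at 10.30 in GFPko and 10.60 in CD25neg cells. Cd8a, the chain that marks cytotoxic T cells, was at 3.21 in GFPko and 3.16 in CD25neg cells, close to the array medians.

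The Foxp3 probe set read 8.33 in GFPko and 2.45 in CD25neg cells, at least 38.6-fold higher in GFPko. On the other arrays it was at 9.39 in GFPko cells after IL-2, 10.86 in GFPfoxp3 and 3.90 in CD25pos cells. GFP from this locus was the gate of both populations, and the sources used here do not say where the probe set lies relative to the insertion. The value therefore reports RNA of the locus and checks nothing about the absent protein. Il2ra, the CD25 chain of the IL-2 receptor, read 9.58 in GFPko and 3.45 in CD25neg cells, a 70.1-fold difference. CD25neg cells were sorted as lacking that protein, while the labels name no CD25 gate for GFPko cells, so this difference is in part one of selection. With all probe sets of Il2ra averaged the difference was 4.50 log2 units.

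Over the 7 arrays of sorted cells, the genes whose levels ran most like Foxp3 by Pearson's r were Gata1 (r = 0.989), Dennd5a (0.989), Junb (0.988), Ppm1l (0.986) and Map6 (0.985). These are descriptions across 7 arrays that share mice of the same lines, and each gene was picked for its r. Gata1, a zinc finger factor known from red cell development, lay at 6.42 in GFPko and 4.75 in CD25neg cells. Junb, an AP-1 subunit, lay at 6.61 in GFPko and 5.64 in CD25neg cells, just under 2-fold apart. Ppm1l, a protein phosphatase, was 4.87-fold higher in GFPko cells, and its probe sets together differed by 0.99. Among 19 measured neighbours of Foxp3 on the X chromosome, 2 were at least 2-fold higher in GFPko and 0 lower. Usp27x, a deubiquitinase, read 4.98 in GFPko and 2.95 in CD25neg cells, at least 3.79-fold higher. Plp2, a small membrane protein, read 10.63 in GFPko and 8.89 in CD25neg cells.

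Transcription factors of regulatory T cells were higher in GFPko cells in 8 of 14 measured cases and lower in 0, with a median difference of 1.44 against 0.0032 over all genes. Foxp3, whose locus carried the gate, is one of the 8. Ikzf4 (Eos), an Ikaros-family partner of Foxp3, was 16.9-fold higher, at 10.24 in GFPko and 6.16 in CD25neg cells. Ikzf2 (Helios), of the same family, was at 11.26 in GFPko and 7.67 in CD25neg cells, 12.0-fold higher. A second Ikzf2 probe set differed by 4.31, and the mean, which takes in a dim one, by 2.61. On the probe set used, Ikzf2 was at 9.83 in CD25pos and 12.43 in GFPfoxp3 cells. Irf4, a factor of effector regulatory cells and also of Th17 and plasma cells, was 9.76-fold higher, at 9.40 in GFPko and 6.11 in CD25neg cells, with a mean over its probe sets of 1.65. Maf differed by 2.44, Nfil3 by 1.87 (at least 3.47-fold), Ikzf3 (Aiolos) by 1.53 and Prdm1 (Blimp-1), a repressor of effector cells, by 1.35. Ikzf3 is read by several probe sets, whose mean differed by only 0.59. Gata3, at 9.37 in GFPko and 9.36 in CD25neg cells, and Satb1, Ikzf1, Bach2, Batf and Rora lay within 2-fold.

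Surface and suppressive genes of regulatory T cells were at least 2-fold higher in GFPko cells in 21 of 30 cases and lower in 0, with a median difference of 2.07. Il2ra, set in part by the sort, is one of them. Ctla4, the inhibitory receptor that strips CD80 and CD86 from other cells, read 12.09 in GFPko and 7.14 in CD25neg cells, 30.9-fold higher. Il10, a suppressive cytokine, read 7.11 in GFPko and 2.74 in CD25neg cells, at least 16.6-fold higher, beside 7.14 in GFPfoxp3 and 4.23 in CD25pos cells. On the Il10 probe set GFPko and GFPfoxp3 cells were thus nearly level, while both GFP-negative arrays lay lower.

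Several receptors of the same list followed. Tnfrsf4 (OX40), a costimulatory receptor of the TNF receptor family, was 14.1-fold higher, at 9.30 in GFPko and 5.47 in CD25neg cells. Gpr83, an orphan receptor abundant in regulatory cells, was 13.2-fold higher, at 10.22 in GFPko and 6.49 in CD25neg cells. Nt5e (CD73), which makes adenosine from AMP, was 7.25-fold higher, at 10.88 in GFPko and 8.02 in CD25neg cells. Cd83, an activation receptor, differed by 3.17, Penk, an opioid peptide precursor, by 3.13, and Capg, an actin-capping protein, by 2.97 (1.94 over its probe sets). Swap70 differed by 2.64 (1.92 by another probe set), Ecm1 by 2.54, Tnfrsf9 (4-1BB) by 2.34 and Nrp1, the neuropilin receptor, by 1.81. Tnfrsf18 (GITR) read 9.77 in GFPko and 8.36 in CD25neg cells, a 2.67-fold difference. Itgae, the CD103 chain, was 7.03-fold higher in GFPko through a probe set open to cross-matching, and 3.08-fold by the other. The letters TGTTTAC, bound by forkhead factors, were searched on both strands of the RefSeq promoters described with the next list. They were in 1 of the 13 higher genes of this list that had a promoter, Swap70. In the whole list they were in 1 of 21 genes with a promoter, beside 3.65% of all promoters.

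Some genes of that list did not reach 2-fold between these arrays although they stood high where Foxp3 protein was made. Klrg1, an inhibitory lectin-type receptor, read 3.53 in GFPko and 3.91 in CD25neg cells, beside 10.79 in GFPfoxp3 cells. Gzmb, the protease granzyme B, was below the array median in both, at 2.85 in GFPko and 2.92 in CD25neg cells, beside 8.19 in GFPfoxp3 cells. S100a6, a calcium-binding protein, read 7.28 in GFPko and 8.04 in CD25neg cells, beside 10.65 in GFPfoxp3 cells. Ebi3, a subunit of IL-35, read 4.50 in GFPko and 3.64 in CD25neg cells, beside 8.34 in GFPfoxp3 cells. With these 4 genes the GFPko level lay nearer the CD25neg than the GFPfoxp3 level, and the difference between GFPko and GFPfoxp3 cells is given here as levels only.

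**Figure D2:**
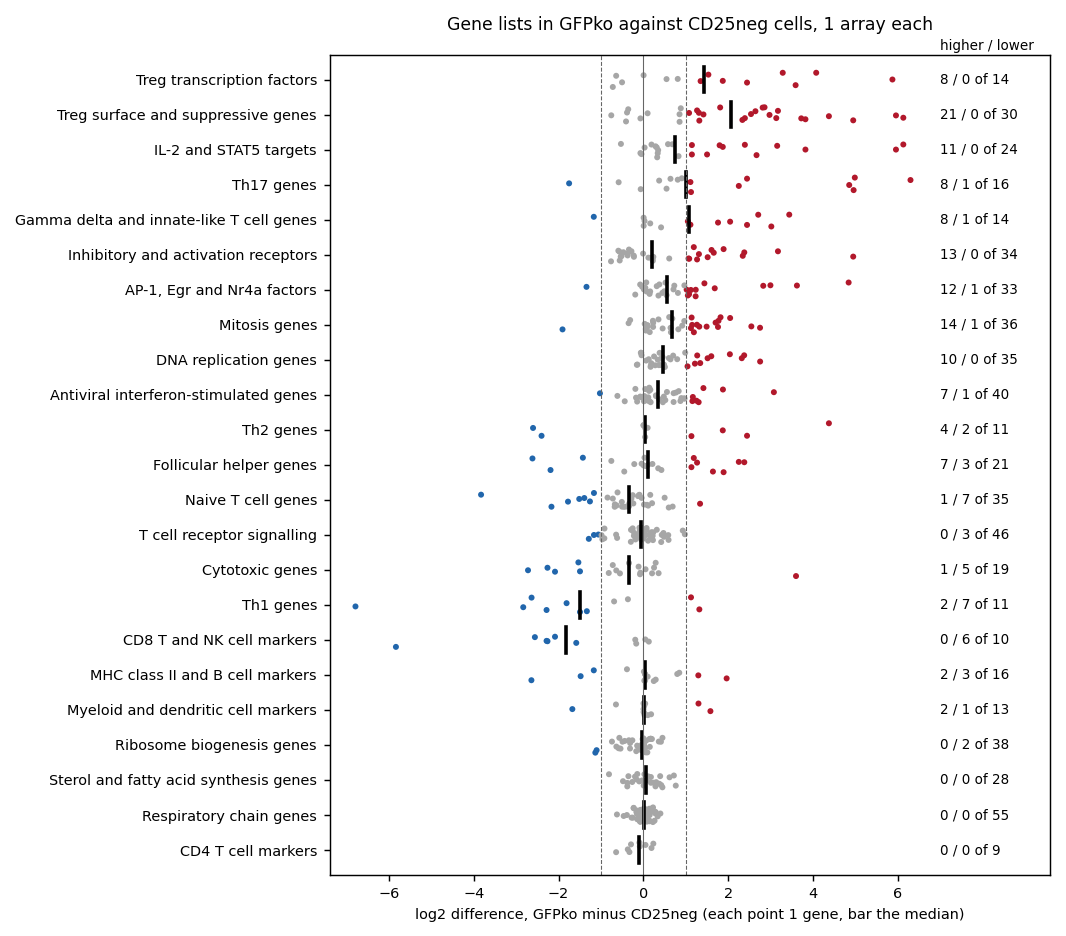
Each point is the log2 difference of 1 gene, GFPko minus CD25neg, in 23 gene lists, with the list's median as a black bar and 2-fold marked by dashed lines. The numbers at the right count genes at least 2-fold higher and lower in GFPko cells: 21 and 0 of 30 regulatory surface genes stand at the top, while 7 of 11 Th1 genes and 6 of 10 CD8 and NK markers lie on the lower side.

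Genes that respond to IL-2 through the factor STAT5 were higher in 11 of 24 cases and lower in 0, with a median of 0.76. Il2ra, Il2rb, Socs2 and Tnfrsf4 are in this list too. Socs2, a STAT5-induced brake on cytokine signalling, read 10.05 in GFPko and 4.09 in CD25neg cells, 62.1-fold higher, and 11.20 in GFPko cells after IL-2. Its probe sets disagreed in size, and their mean differed by 2.54. Cish, a brake of the same family, was 8.91-fold higher, at 10.07 in GFPko and 6.92 in CD25neg cells. It read 11.15 in GFPko cells after IL-2, 10.37 in GFPfoxp3 and 8.50 in CD25pos cells. Il2rb, the beta chain of the IL-2 receptor, was 5.25-fold higher, at 8.36 in GFPko and 5.97 in CD25neg cells, while its probe sets together differed by 1.60. Pim1, a kinase that favours survival, differed by 1.80 (1.11 over its probe sets), the cytokine Lta by 1.50, the survival gene Bcl2 by 1.14 and Socs3 by 1.14. Over its probe sets Socs3 differed by 0.64, under 2-fold. The signal carriers themselves were within 2-fold: Stat5a read 7.82 in GFPko and 7.62 in CD25neg cells, Stat5b 9.86 in GFPko and 9.54 in CD25neg cells, and Jak3 7.33 in GFPko and 6.50 in CD25neg cells.

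The letters TTCNNNGAA, bound by STAT factors and the same on both strands, were searched in RefSeq promoters of the assembly GRCm38.p6, windows of 300 bases that end 50 bases past each start. Of the 11 higher genes of this list 9 had a promoter there and 3 held the motif, Cish, Lta and Socs3. In the whole list 4 of 19 genes with a promoter held it, beside 8.3% of 32851 such promoters, which belong to 27025 genes. A match is a run of letters and not a shown binding site. The Cish promoter, chr9:107296409-107296708 on the plus strand, is printed because it holds 2 matches side by side, at positions 1 and 12 from the start, in capitals:
Cish: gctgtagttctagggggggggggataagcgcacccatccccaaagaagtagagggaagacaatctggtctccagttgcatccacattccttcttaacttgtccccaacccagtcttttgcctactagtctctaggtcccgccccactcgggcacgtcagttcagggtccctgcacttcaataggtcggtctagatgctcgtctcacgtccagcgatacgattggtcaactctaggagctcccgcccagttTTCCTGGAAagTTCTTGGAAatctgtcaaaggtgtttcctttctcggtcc

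Th17 genes were higher in GFPko cells in 8 of 16 cases and lower in 1, with a median of 1.01. Ccr6, the receptor for the chemokine CCL20 and a surface mark of Th17 cells that regulatory cells share, had the largest difference in that direction among the bright genes. It read 10.01 in GFPko and 3.71 in CD25neg cells, 78.8-fold higher, beside 9.04 in GFPfoxp3 and 7.85 in CD25pos cells. Ccl20, its ligand, read 8.27 in GFPko and 3.31 in CD25neg cells, 31.1-fold higher. Ccl20 was at 8.04 in GFPko cells after IL-2, but only at 3.69 in CD25pos and 3.42 in GFPfoxp3 cells. Il17a, the cytokine that names the lineage, read 8.05 in GFPko and 3.20 in CD25neg cells, 28.9-fold higher. On the other arrays Il17a was at 6.36 in GFPko cells after IL-2, 3.63 in CD25pos and 3.22 in GFPfoxp3 cells. Of these 5 arrays, both GFPko arrays stood high for Il17a and Ccl20 and the other 3 lay near the array median, whereas Ccr6 was high on every array but CD25neg.

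Ahr, a ligand-activated factor needed for IL-22 in Th17 cells, read 10.07 in GFPko and 5.08 in CD25neg cells, 31.7-fold higher. Maf, which drives IL-10 and IL-21 in several helper fates, was 5.44-fold higher, at 11.35 in GFPko and 8.91 in CD25neg cells. Il21, a cytokine of Th17 and follicular helper cells, was 4.76-fold higher, at 7.46 in GFPko and 5.21 in CD25neg cells, and the mean of its probe sets differed by 1.45. It was higher still in CD25pos cells, at 8.12, and below the median in GFPfoxp3 cells, at 2.62. Il12rb1, shared by the IL-12 and IL-23 receptors, differed by 1.12 and Il1r1, the IL-1 receptor, by 1.11. Abcb1b, a drug efflux pump, was the 1 lower member, at 5.11 in GFPko and 6.86 in CD25neg cells. Stat3, Rora and Batf, factors of the lineage, were within 2-fold.

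The nuclear receptor core AGGTCA, which reads as TGACCT on the other strand and forms part of the element bound by ROR factors, was searched on both strands in the same promoters. Of the 8 higher Th17 genes 5 had a promoter there and 3 held it, as did 3 of 12 genes with a promoter in the whole list. The share of all 32851 promoters, counted by promoter and not by gene, was 16.3%. The 3 promoters are printed because they belong to Ccl20, Ccr6 and Il17a, a ligand, its receptor and the lineage cytokine. All are read on the plus strand with the match in capitals, for Ccl20 at chr1:83116516-83116815 and position -174 from the start, for Ccr6 at chr17:8235793-8236092 and position -44, and for Il17a at chr1:20730655-20730954 and position -120:
Ccl20: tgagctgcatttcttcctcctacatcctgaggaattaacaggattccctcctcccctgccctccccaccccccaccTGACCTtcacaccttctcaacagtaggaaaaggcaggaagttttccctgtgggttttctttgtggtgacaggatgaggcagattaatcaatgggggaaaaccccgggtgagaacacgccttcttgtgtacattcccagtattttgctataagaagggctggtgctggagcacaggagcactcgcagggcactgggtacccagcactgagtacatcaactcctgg
Ccr6: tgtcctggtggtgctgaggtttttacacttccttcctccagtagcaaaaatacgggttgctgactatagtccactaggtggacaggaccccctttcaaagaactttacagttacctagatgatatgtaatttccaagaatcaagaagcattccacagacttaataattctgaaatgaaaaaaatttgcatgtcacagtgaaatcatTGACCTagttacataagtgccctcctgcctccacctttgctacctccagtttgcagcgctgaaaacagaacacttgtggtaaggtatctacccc
Il17a: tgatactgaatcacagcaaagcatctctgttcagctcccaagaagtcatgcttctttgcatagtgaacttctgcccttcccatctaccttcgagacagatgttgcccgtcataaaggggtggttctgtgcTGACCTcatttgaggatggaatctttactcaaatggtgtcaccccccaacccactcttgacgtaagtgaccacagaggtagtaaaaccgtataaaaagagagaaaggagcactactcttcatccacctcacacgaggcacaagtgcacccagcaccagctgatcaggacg

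Genes known from gamma delta and other innate-like T cells, some of which also make IL-17, were higher in 8 of 14 cases and lower in 1, with a median of 1.08. Trgv4, a variable segment of the gamma chain, read 8.48 in GFPko and 5.04 in CD25neg cells, beside 9.43 in CD25pos and 5.83 in GFPfoxp3 cells. A second Trgv4 probe set differed by 3.23 and a dim one by 0.15. Tmem176b, a membrane protein of ROR gamma t-expressing cells, was 6.54-fold higher, at 8.39 in GFPko and 5.68 in CD25neg cells. Both 5830411N06Rik (3.02) and Cd163l1 (2.05) were higher, the second through a probe set open to cross-matching. Without such probe sets Cd163l1 differed by 0.040. The 1 lower member was Zbtb16, at 2.56 in GFPko, below the array median, and 3.73 in CD25neg cells, at least 1.54-fold. Its level was 6.44 in CD25pos cells. The Zbtb16 probe set is open to cross-matching too, and without such probe sets the difference was -0.29. Trgv1 was at 5.11 in GFPko and 5.10 in CD25neg cells, and Fcer1g and Tyrobp, of innate lymphoid and myeloid cells, lay below the array median in both. The median level of the list was 5.19 in GFPko and 3.71 in CD25neg cells, and its part in the difference of Il17a was not tested.

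Th1 genes ran the other way, with 7 of 11 lower in GFPko cells, 2 higher and a median of -1.50. Ccl5 (RANTES), a chemokine of effector and memory T cells, had the largest difference of all bright genes, at 3.47 in GFPko and 10.26 in CD25neg cells, 111-fold lower in GFPko. Ccl5 was at 5.90 in GFPko cells after IL-2, 11.79 in CD25pos and 9.82 in GFPfoxp3 cells, so that the 2 GFPko arrays were the lowest of the 5. Tbx21 (T-bet), the lineage factor, read 5.27 in GFPko and 8.10 in CD25neg cells, 7.13-fold lower, beside 10.04 in CD25pos and 6.37 in GFPfoxp3 cells. Cxcr3, a receptor that T-bet induces, was 6.22-fold lower, at 7.46 in GFPko and 10.10 in CD25neg cells. Eomes, the other T-box factor, was 4.87-fold lower, at 3.84 in GFPko and 6.13 in CD25neg cells, with a mean over its probe sets of -1.23. Ifng, interferon gamma, was 3.51-fold lower, at 4.54 in GFPko and 6.35 in CD25neg cells. Runx3, which cooperates with T-bet, differed by -1.33 and Nkg7, a granule protein, by -1.50. In GFPfoxp3 cells Eomes read 4.03, Ifng 4.92, Runx3 6.77 and Nkg7 7.01, each also below its CD25neg level. Cxcr3 read 11.10 in GFPfoxp3 cells, above its CD25neg level. Il18r1, a chain of the IL-18 receptor, went against the rest of its list, at 10.56 in GFPko and 9.24 in CD25neg cells, together with Il12rb1. Stat4, which carries the IL-12 signal, was within 2-fold, at 9.19 in GFPko and 9.56 in CD25neg cells.

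**Figure D3:**
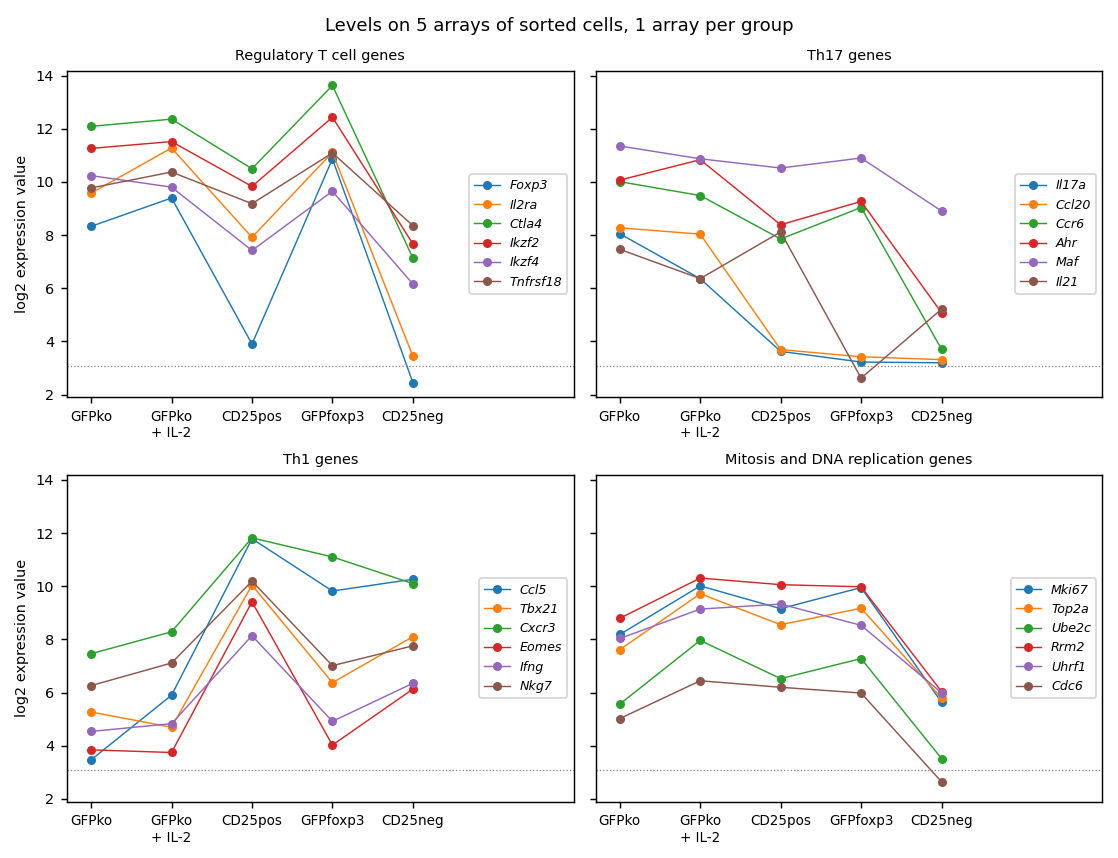
Log2 levels of 6 genes in each of 4 groups on 5 arrays of sorted cells, with CD25neg at the right of each panel; thin lines join the values of 1 gene and the dotted line is the mean array median. Il17a and Ccl20 stand high on both GFPko arrays only, and Tbx21, Cxcr3 and Ccl5 are lower there than in CD25neg cells.

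Cytotoxic genes were lower in GFPko cells in 5 of 19 cases and higher in 1, with a median of -0.34. Gzmk, a granule protease, read 2.62 in GFPko and 5.34 in CD25neg cells, at least 4.70-fold lower. Prf1 (perforin) was 4.24-fold lower, at 4.08 in GFPko and 6.16 in CD25neg cells, and Gzma was lower too, at 3.15 in GFPko cells, close to the array median, and 5.41 in CD25neg cells. Fasl, the death ligand, differed by -1.53. Ctse, the aspartic protease cathepsin E, was the exception, at 11.43 in GFPko and 7.83 in CD25neg cells, 12.1-fold higher. Ctse was at 11.58 in GFPko cells after IL-2 and at 7.41 in CD25pos and 7.23 in GFPfoxp3 cells. Of these 5 arrays the 2 GFPko ones stood high for it.

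Markers of CD8 T and NK cells, a list that shares Eomes, Prf1 and Gzma with those above, were lower in 6 of 10 cases and higher in 0. Their median level was 3.26 in GFPko and 5.41 in CD25neg cells. Klrd1 (CD94), a receptor chain of NK and memory CD8 cells, read 3.04 in GFPko and 8.88 in CD25neg cells, at least 54.5-fold lower, beside 8.91 in CD25pos and 2.86 in GFPfoxp3 cells. Crtam, an adhesion molecule of cytotoxic cells, was at least 4.90-fold lower, at 2.84 in GFPko and 5.40 in CD25neg cells. Klrc1 (NKG2A), the partner of CD94, was at least 2.73-fold lower, but belongs to a separate list of killer lectin-like receptors. The median difference of that list was 0.0285. Clec2d in it was higher, by 1.13, and apart from Klrd1 its other measured members were within 2-fold. Cd8a and Cd8b1, which define CD8 T cells, were within 2-fold, Cd8a close to the array median in both populations and Cd8b1 at 4.86 in GFPko and 5.05 in CD25neg cells. The part of such cells in the Th1 and cytotoxic differences was not tested.

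Genes of naive T cells were lower in 7 of 35 cases and higher in 1, with a median of -0.34, so that most of the naive program was within 2-fold. Dapl1, whose transcript is abundant in naive T cells, read 7.65 in GFPko and 11.48 in CD25neg cells, 14.2-fold lower, and 5.39 in GFPfoxp3 cells. Slc16a5, of the monocarboxylate transporter family, was 4.50-fold lower, at 5.76 in GFPko and 7.92 in CD25neg cells. Lef1, a Wnt pathway factor of naive cells, was 2.40-fold lower, at 10.21 in GFPko and 11.47 in CD25neg cells, and by -0.94 log2 units over both of its probe sets, under 2-fold. Als2cl (-1.78), Trat1 (-1.39) and Txk (-1.17) were also lower. Pde3b, the cAMP phosphodiesterase of the study's title, read 10.22 in GFPko and 11.73 in CD25neg cells, 2.85-fold lower, beside 11.62 in CD25pos and 6.06 in GFPfoxp3 cells. The GFPko level of Pde3b lay nearer the CD25neg than the GFPfoxp3 level. Ccr7, the lymph node homing receptor, differed by -0.68, Il7r by -0.67 (-1.07 over its probe sets) and Klf2 by -0.61, while Foxo1, Ets1 and Bcl11b were nearly level.

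Of 33 genes of the cAMP machinery, Pde3b included, 1 was higher and 2 were lower, Pde3b and Pde5a. Over all genes the shares were 3.93% higher and 2.8% lower. Pde5a, a phosphodiesterase of cGMP, read 2.96 in GFPko and 6.20 in CD25neg cells, at least 8.53-fold lower, and was at or below 2.94 on the other 3 arrays. Here the CD25neg array was the one that stood apart. Through its brighter probe set on these 2 compared arrays Pde5a differed by -4.15, against -3.24 by the one used. Prkar1b, which holds protein kinase A inactive until cAMP binds, differed by 1.62 through a probe set open to cross-matching, and by 0.016 without it.

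Genes tied to activation were mostly higher or within 2-fold. Of 33 AP-1, Egr, Nr4a and related feedback genes 12 were higher and 1 lower, with a median of 0.55. Dusp4, a phosphatase of MAP kinases, read 8.47 in GFPko and 3.63 in CD25neg cells, 28.7-fold higher. Fos, an AP-1 subunit, was 12.3-fold higher, at 11.55 in GFPko and 7.93 in CD25neg cells, and Jun 7.98-fold higher, at 9.33 in GFPko and 6.34 in CD25neg cells. Such genes also respond to handling and sorting, whose part was not tested. Inhibitory and activation receptors were higher in 13 of 34 cases and lower in 0, with a median of 0.21. Besides Ctla4 and Cd83 they included Cd200 (2.38), Cd86 (2.34, and 1.62 over its probe sets), Pdcd1, the PD-1 receptor (1.89), Slamf1 (1.61) and Icos (1.27). Of 18 TNF receptor family genes 5 were higher and 0 lower, all of them but Tnfrsf1b and Tnfrsf13b already named, and Tnfrsf1b differed by 0.94 over its probe sets. Among 46 genes of T cell receptor signalling 0 were higher and 3 lower, Sla2 (-1.29), Txk and Nck1 (-1.06), with a median of -0.053. The shares over all genes were 3.93% higher and 2.8% lower. Averaged over its probe sets Nck1 differed by -0.26.

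Of 36 mitosis genes 14 were higher in GFPko cells and 1 lower, while 21 were within 2-fold. Their median difference was 0.67, with median levels of 4.35 in GFPko and 3.64 in CD25neg cells, and it was 0.36 without probe sets that can cross-match and 0.40 with the probe set highest on these 2 arrays. Mki67, the Ki-67 antigen of cycling cells, read 8.18 in GFPko and 5.64 in CD25neg cells, 5.84-fold higher, beside 9.95 in GFPfoxp3 and 9.16 in CD25pos cells. Nusap1, a spindle protein, was at least 5.28-fold higher, at 5.46 in GFPko and 2.71 in CD25neg cells, and Ube2c, which helps end mitosis, was 4.13-fold higher, at 5.57 in GFPko and 3.52 in CD25neg cells. Kif23, a kinesin of cytokinesis, was the lower one, at 4.07 in GFPko and 5.98 in CD25neg cells, and its probe sets together differed by -0.94. Several mitosis genes were dim in CD25neg cells, so that Ccnb2 and Hmmr, for example, have bounds of only 1.45-fold and 1.85-fold. The mean over the probe sets of Hmmr differed by 0.44.

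Of 35 DNA replication genes 10 were higher and 0 lower, with a median of 0.45. Without probe sets that can cross-match, Mcm7 differed by -1.06, against 0.13 by the one used. Rrm2, which makes deoxynucleotides, was 6.74-fold higher through a probe set open to cross-matching, at 8.79 in GFPko and 6.04 in CD25neg cells, and 4.27-fold by another. Uhrf1, which carries methylation through replication, was 4.11-fold higher, at 8.03 in GFPko and 5.99 in CD25neg cells, but by 0.93 log2 units over its probe sets together. Cdc6, a licensing factor, was at least 3.90-fold higher, at 5.02 in GFPko and 2.64 in CD25neg cells. Metabolic lists differed little. Among 55 respiratory chain genes and 28 genes of sterol and fatty acid synthesis 0 were 2-fold apart, among 38 ribosome biogenesis genes 2 were lower (Polr1a and Nop14, the first by only -0.22 over its probe sets), and among 24 glycolysis genes 3 were higher (Eno2, Hk2 and Eno3). Over all genes 3.93% were higher and 2.8% lower.

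Other helper and effector groups split. Of 11 Th2 genes 4 were higher, Il10, Maf, Nfil3 and Il4, and 2 were lower, Epas1 and Il17rb. Il4, the Th2 cytokine, read 5.04 in GFPko and 3.90 in CD25neg cells, against 2.32 in GFPfoxp3 cells, and Il13 lay below the median in both populations. Of 21 follicular helper genes 7 were higher and 3 lower, and Cxcr5, the follicle homing receptor, was among the lower ones, at 2.89 in GFPko and 5.50 in CD25neg cells, at least 5.26-fold. Il2, the growth cytokine of conventional cells, read 3.40 in GFPko and 4.36 in CD25neg cells, 1.94-fold apart, beside 7.08 in CD25pos cells. Lif (1.78), Tnfsf8 (1.73) and Tnfsf11, RANK ligand (1.14), were higher. Of 28 chemokine and homing receptors 4 were higher, Ccr6, Gpr15, Ptger2 and Ccr9, and Cxcr3 and Cxcr5 were lower. Over all its probe sets Ccr9 differed by 0.92, under 2-fold. Gpr15, a receptor for homing to the large intestine, was at least 2.80-fold higher, at 4.54 in GFPko and 1.65 in CD25neg cells.

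Receptors and brakes of other signals gave smaller counts. Interleukin receptors held 7 higher and 3 lower of 31, with a median of 0.042. Il1r2, a decoy receptor for IL-1, was 4.61-fold higher, at 5.78 in GFPko and 3.58 in CD25neg cells. Ifngr2, a chain of the interferon gamma receptor, was 3.92-fold higher, at 7.07 in GFPko and 5.10 in CD25neg cells, and the mean of its probe sets differed by 1.07. Il17rb, the IL-25 receptor chain, was lower in GFPko cells, where it lay below the array median, at 2.29 in GFPko and 4.70 in CD25neg cells. Among 30 genes of TGF-beta and SMAD signalling 4 were higher and 3 lower. Bmpr2, a receptor for bone morphogenetic proteins, was 4.93-fold higher, at 8.30 in GFPko and 6.00 in CD25neg cells, with a mean over its probe sets of 1.10. Tgfbr3, the co-receptor betaglycan, was 2.51-fold lower, at 9.28 in GFPko and 10.61 in CD25neg cells, and Acvrl1 differed by -1.30 (by -3.88 through its other probe set). Of 16 genes on the list of integrin chains, which took in the integrin-binding protein Itgb1bp1, Itgae and Itgb8 were higher. Itga4 differed by 0.48, but by 1.12 over its probe sets. Itgb1 was lower, at 6.69 in GFPko and 7.75 in CD25neg cells. The probe sets of Itgb1 did not go one way, and their mean differed by -0.51.

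Among 50 Kruppel-like, Id, Tox and other transcription factors 9 were higher and 4 lower. Klf9, which responds to glucocorticoids, was 5.36-fold higher, at 9.77 in GFPko and 7.34 in CD25neg cells (a difference of 1.47 over its probe sets), and Bhlhe40, a repressor induced by activation, was 4.22-fold higher, at 7.40 in GFPko and 5.33 in CD25neg cells. Vdr, the vitamin D receptor, was at least 3.90-fold higher, at 5.02 in GFPko and 2.99 in CD25neg cells, and it differed by 2.83 through its brighter probe set on these arrays. Epas1, the hypoxia factor HIF-2 alpha, was 6.08-fold lower, at 6.39 in GFPko and 8.99 in CD25neg cells. Plagl1 differed by 3.02 through a probe set open to cross-matching and by 0.37 without it.

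Of 28 galectin, annexin and S100 genes and their like 5 were higher and 1 lower. Emp1, a membrane protein of memory cells, was 13.5-fold higher, at 7.82 in GFPko and 4.08 in CD25neg cells, and the mean of its probe sets differed by 2.10. Anxa1, annexin A1, was the lower one, at 4.69 in GFPko and 6.78 in CD25neg cells. The BCL2 family and caspases held 3 higher and 1 lower of 26. Pmaip1 (Noxa), which promotes cell death, was 3.28-fold higher, at 5.82 in GFPko and 4.11 in CD25neg cells, and Bcl2l11 (Bim), which does so too, 2.81-fold, at 11.31 in GFPko and 9.82 in CD25neg cells. The probe sets of Bcl2l11 together differed by 0.75, under 2-fold. Bcl2, which opposes cell death, was the remaining higher one, at 11.84 in GFPko and 10.69 in CD25neg cells. Of 11 RGS regulators of G proteins 2 were higher, Rgs1 and Rgs16, and 2 lower, Rgs11 and Rgs2, the last by only -0.60 over its probe sets. Of 28 FOXO targets 2 were higher, Bcl2l11 and Trib1, and 0 lower, and both fell under 2-fold when their probe sets were averaged (0.75 and 0.62). Such counts stand beside 3.93% higher and 2.8% lower over all genes. Of 23 heat shock chaperones Hsph1 was higher (0.85 over its probe sets) and Hspa1b lower (-1.97 over its probe sets), and of 8 Gimap genes 0 were 2-fold apart.

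Interferon-inducible GTPases and Ifi200 genes held 3 higher and 1 lower of 16. Gbp2b read 8.76 in GFPko and 2.60 in CD25neg cells, at least 52.2-fold higher. On the other arrays Gbp2b was at 7.96 in GFPko cells after IL-2, 9.17 in GFPfoxp3 and 2.61 in CD25pos cells, so that the 3 GFP-positive arrays given here were high. Ifi202b, a DNA-binding protein of the Ifi200 family, read 6.09 in GFPko and 2.87 in CD25neg cells, at least 8.17-fold higher, through a probe set open to cross-matching. It was at 2.92 in GFPko cells after IL-2, at 2.84 in CD25pos and at 2.74 in GFPfoxp3 cells. The untreated GFPko array thus stood alone for Ifi202b. Both genes are on a list of 8 genes known to differ between 129 and C57BL/6 mice, of which 2 were higher and 0 lower, and the GFPko line had fewer backcrosses than the CD25neg line. The part of strain was not tested. Antiviral interferon-stimulated genes were higher in 7 of 40 cases and lower in 1, with a median of 0.34, led by Ifitm3, a block to viral entry, at 8.92 in GFPko and 5.85 in CD25neg cells.

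Of the 20 largest differences in each direction among 8033 bright genes, those whose higher array lay at least 2 log2 units above its median, most of those not yet described belong to none of the groups above. Cpe, which trims peptide hormones, read 9.48 in GFPko and 3.42 in CD25neg cells, 66.8-fold higher, beside 6.27 in CD25pos and 6.49 in GFPfoxp3 cells. Coro2a, an actin-binding coronin, was 53.0-fold higher in GFPko than in CD25neg cells, a difference of 5.73. BC018473, a transcript with no role given here, read 8.35 in GFPko and 2.94 in CD25neg cells, at least 39.2-fold higher, and 8.17 in GFPko cells after IL-2. CD25pos and GFPfoxp3 cells had BC018473 at 2.94 and 2.90, so that among the 5 arrays both GFPko arrays stood alone. The secreted ribonuclease Rnase4 differed by 4.66, the joint lubricant Prg4 by 4.64 and the glutathione transferase Gsta4 by 4.57. D630039A03Rik (4.53), the Wnt carrier Wls (4.33, and 3.65 over its probe sets) and Rgs1, which shortens G protein signals and was counted above (4.22), completed the higher side. Rgs1 reached 12.48 in GFPko cells after IL-2, against 10.59 in untreated GFPko and 6.38 in CD25neg cells.

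**Figure D4:**
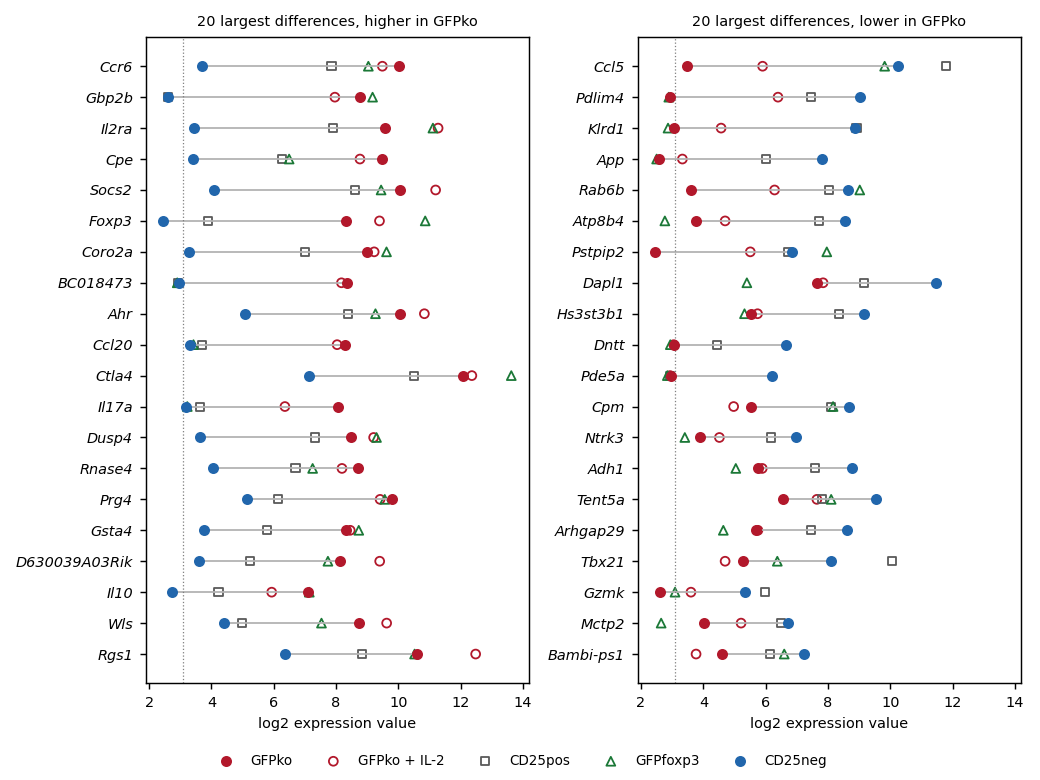
Log2 levels of the 20 bright genes with the largest difference in each direction, with filled red points for GFPko, filled blue for CD25neg and open symbols for 3 further arrays; the dotted line is the mean of the 2 array medians. GFPko cells after IL-2 lie near untreated GFPko cells for most of the genes at the left, while Rab6b, Pdlim4 and Pstpip2 at the right are higher in GFPko cells after IL-2.

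On the lower side the largest differences after Ccl5 were in Pdlim4 and Klrd1. Pdlim4, a PDZ and LIM domain protein of the actin skeleton, read 2.92 in GFPko and 9.03 in CD25neg cells, at least 60.4-fold lower, and 6.39 in GFPko cells after IL-2. App, the amyloid precursor, was at least 26.1-fold lower, at 2.57 in GFPko and 7.81 in CD25neg cells, and the mean over its probe sets differed by -3.20. Rab6b, a small GTPase of Golgi transport, was 33.2-fold lower, at 3.60 in GFPko and 8.65 in CD25neg cells. Its level was 6.28 in GFPko cells after IL-2 and 9.02 in GFPfoxp3 cells, and its probe sets together differed by -3.23. Pstpip2, a membrane-bending protein, was at least 13.3-fold lower, at 2.45 in GFPko and 6.84 in CD25neg cells, beside 5.51 in GFPko cells after IL-2. The mean over its probe sets differed by -2.64. For Pdlim4, Rab6b and Pstpip2, as for Ccl5, the 2 GFPko arrays differed by more than 2 log2 units, and the IL-2 treatment and the separate array cannot be told apart.

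The lipid flippase Atp8b4 differed by -4.78 and the heparan sulfate sulfotransferase Hs3st3b1 by -3.63 (-2.10 over its probe sets). Dntt, the terminal transferase of recombining lymphocytes, was at least 11.7-fold lower, at 3.05 in GFPko and 6.66 in CD25neg cells, and its probe sets together differed by -2.68 (-1.76 without those that can cross-match). In the remaining genes Cpm, a carboxypeptidase, differed by -3.12, Ntrk3, a neurotrophin receptor, by -3.08 (-1.53 over its probe sets), Adh1 by -3.04, Tent5a by -2.98, Arhgap29 by -2.91 (-1.41 over its probe sets) and Mctp2 by -2.68. Bambi-ps1, a pseudogene, differed by -2.66 and may share signal with its parent gene. Of these 40 genes 11 had a lower side below the array median, so that their order is not settled.

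Of 16 markers of B cells and MHC class II 2 were higher and 3 lower, with median levels of 3.58 in GFPko and 3.28 in CD25neg cells. Ms4a1 (CD20), which defines B cells, read 3.60 in GFPko and 3.31 in CD25neg cells. Cd22 was at least 5.09-fold lower in GFPko cells and Cd79b at least 3.89-fold higher. Ighm, the mu heavy chain, was bright in both, at 10.35 in GFPko and 11.52 in CD25neg cells (-1.17, through a probe set open to cross-matching, and -0.29 over its probe sets). H2-Aa, an MHC class II chain, was higher through a cross-matching probe set, at 5.07 in GFPko and 3.78 in CD25neg cells, and Bank1 lower, at 3.56 in GFPko and 5.04 in CD25neg cells. Of 13 myeloid and dendritic markers 2 were higher and 1 lower, 7 were below the median in both populations, and the median level was 3.04 in GFPko and 3.03 in CD25neg cells. The higher ones were Fcgr3, at 5.48 in GFPko and 3.90 in CD25neg cells, and Lyz1, at 6.91 in GFPko and 5.61 in CD25neg cells. Fcgr3 was at 3.87 in CD25pos and 2.96 in GFPfoxp3 cells. Cybb was the lower one, at 3.82 in GFPko and 5.50 in CD25neg cells, and differed by -0.84 over its probe sets. Csf1r, the receptor that defines macrophages, lay below the median in both. Of 7 plasma cell markers 2 were higher, Irf4 and Prdm1, which T cells also use, and 2 were lower, Igha (-1.75, and -2.80 over its probe sets) and Jchain (at least 1.62-fold). Of 3 erythroid markers 1 was lower, Car2 (at least 2.29-fold). The part of such cells in the differences was not tested.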

How the data were processed

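Affymetrix mouse arrays of sorted CD4 T cells were used, 1 per group. Per the labels' protocols, RNA was extracted with Stat-60 and amplified to biotinylated cRNA. The deposited values are log2 expression values of 45101 probe sets on 10 arrays, which the authors normalized together, per the series' design text. The log2 scale was read from their range, and the sources used here name no software.

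Probe sets with 1 gene in the platform annotation (34958, of which 34754 were matched by Entrez ID to GRCm38.p6 names) were kept where any array reached its own median. The probe set with the highest mean stood for each gene, which left 11939 of 18194 genes. Differences are GFPko minus CD25neg, counted at 2-fold with no test, using Python 3.11.15 and pandas 2.3.3. The counting was tested on simulated data. Promoters came from RefSeq.

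The text names the 20 largest differences each way among bright genes, up to 8 members of each of 44 gene lists by size, defining markers of other cells, 6 key genes and the 5 genes most like Foxp3. Some further list members within 2-fold were named after their values were seen. The comparison, lists and rules were chosen with earlier results of these data known. Alternatives were 2 other normalizations, 3 filters, a floor, 3 choices of probe set and a 3-fold threshold.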

Additional observations from a re-analysis of the deposited data

Results flagged for a closer look

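Of 10092 probe sets with no gene or several genes in the annotation, which no comparison above used, 1807 were bright. Among these 131 were at least 2-fold higher in GFPko than in CD25neg cells and 44 at least 2-fold lower. The 3 highest in GFPko relative to CD25neg cells, data outside the named genes, are given by their identifiers. Probe set 1425470_at differed by 6.00 log2 units, at 11.70 in GFPko and 5.70 in CD25neg cells, beside 8.75 in CD25pos and 10.39 in GFPfoxp3 cells. Probe set 1425471_x_at, which can cross-match, differed by 5.96, at 11.84 in GFPko and 5.88 in CD25neg cells, beside 8.85 in CD25pos and 10.34 in GFPfoxp3 cells. Probe set 1425583_at differed by 5.66, at 8.31 in GFPko and 2.65 in CD25neg cells. It was at 7.07 in GFPko cells after IL-2, at 2.69 in CD25pos and at 2.66 in GFPfoxp3 cells.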

How the results depend on the processing

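With 2-fold as the threshold, the 469 higher and 334 lower genes became 375 to 532 and 265 to 341 over 9 alternatives, all within 1.5 times. With a 3-fold threshold 228 were higher and 97 lower. Centring each array on its kept genes gave 532 higher and 276 lower, 65.8% higher against 58.4%, and moved the median of all genes by less than 0.1 log2 units. Of the 803 genes, 613 remained 2-fold apart with all kept probe sets of a gene averaged, 762 with values floored at the array median and 776 after quantile normalization. Of 323 named or list genes 196 were 2-fold apart. None of these 196 changed sign under any of these 9 alternatives. Of them 29 fell short of 2-fold with the mean of probe sets, 5 with the floor and 5 without probe sets that can cross-match. Some genes within 2-fold did change sign, such as Gimap6, from -0.63 to 0.074 with the mean of probe sets. Others passed 2-fold by another choice of probe set, such as Lss, Mcm7, Itga4, Themis (-1.12) and Gnas (1.01). Of 2834 recomputed differences 85 moved by over 1.5-fold, 56 of them with the mean of probe sets. Of 44 list medians 3 moved by over 1.5-fold, all where genes dim on both arrays were left out. These were gamma delta and innate-like genes (2.05), myeloid markers (1.30) and plasma cell markers (1.07). Some small list medians changed sign while moving by less than that. With the same filter the medians of RGS regulators (0.0115 before) and of B cell and MHC class II markers (0.040 before) became negative. With the floor the Foxp3 difference was 5.27. No paired analysis was possible because each group had 1 array.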
